A study of Mus musculus with 6 samples.

Results

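The transcripts of 9 genes of the shared pluripotency program were followed over 6 cultures of mouse E14tg2a cells, an embryonic stem cell (ESC) line. They are *Pou5f1*, *Sall4*, *Rif1*, *Zfp281*, *Dppa2*, *Dppa4*, *Dppa5a*, *Utf1* and *Lin28a*. These genes were taken by name, and all 9 were on the array, with 16 of its 45037 probe sets, among 17097 genes measured. The study asked whether PRDM14, a PR-domain regulator of germ cells and of naive pluripotency, moves epiblast-like cells (EpiLCs) back toward the naive state, and whether TET1 and TET2, enzymes that oxidize 5-methylcytosine, take part.

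ESCs were kept in N2B27 medium with a GSK3 inhibitor, a MEK inhibitor and LIF. EpiLCs were derived from them by 2 days with activin A, bFGF and serum replacement on fibronectin, which gives EpiLCs (d2). The cells were then replated in serum replacement medium without doxycycline, which gives EpiLCs (d4), or with it, which gives EpiLCs + PRDM14. By the methods of the study, the cells carried a doxycycline-inducible *Prdm14* with a FLAG tag, placed by the piggyBac transposon in E14tg2a colonies that were picked, so each line may be 1 clone. These 3 EpiLC cultures are labelled scramble, which is the control shRNA, and the label of the ESCs names no shRNA. The remaining cultures, EpiLCs (d2) KD and EpiLCs + PRDM14 KD, are labelled as carrying lentiviral shRNAs against *Tet1* and *Tet2*. The labels give no day for the + PRDM14 cultures. Each condition has 1 array and no replicate, so no difference below has an error or a p-value.

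The 9 genes stand for several layers of the network. OCT3/4, the product of *Pou5f1*, is the POU-domain factor that binds the octamer with SOX2 and is needed in both naive and primed cells. SALL4 and ZFP281 are zinc finger proteins that bind the NuRD deacetylase complex, and ZFP281 is known to favor the primed state. RIF1 sets replication timing and acts in DNA double-strand break repair and at telomeres. DPPA2 and DPPA4 are SAP-domain proteins that form a pair and hold promoters of developmental genes open for later use. DPPA5A is a KH-domain RNA-binding protein, UTF1 a chromatin-bound factor, and LIN28A an RNA-binding protein that blocks the maturation of let-7 microRNAs.

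The 250 bases before the start of transcription are shown for the members that the RefSeq promoter table of GRCm38.p6 lists. They are *Pou5f1*, which had a small difference with PRDM14, and *Zfp281*, *Utf1* and *Lin28a*, the members with negative differences in EpiLCs + PRDM14 against EpiLCs (d2). For *Pou5f1* the table holds 2 windows, and the upstream one is shown. Capitals mark GGGCGG on either strand, the GC box that SP and KLF factors bind.
Pou5f1, chr17:35505782-35506031, plus strand: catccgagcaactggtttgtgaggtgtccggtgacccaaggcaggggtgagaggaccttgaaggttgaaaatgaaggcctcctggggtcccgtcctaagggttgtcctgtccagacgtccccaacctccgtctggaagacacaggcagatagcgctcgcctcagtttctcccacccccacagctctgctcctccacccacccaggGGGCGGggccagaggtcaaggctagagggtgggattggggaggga
Zfp281, chr1:136624651-136624900, plus strand: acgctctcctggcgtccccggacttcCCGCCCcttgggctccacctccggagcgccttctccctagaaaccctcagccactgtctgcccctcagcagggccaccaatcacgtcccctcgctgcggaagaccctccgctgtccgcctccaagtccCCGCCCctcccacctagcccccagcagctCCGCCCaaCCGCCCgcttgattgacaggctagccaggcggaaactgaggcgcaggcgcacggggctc
Utf1, chr7:139943606-139943855, plus strand: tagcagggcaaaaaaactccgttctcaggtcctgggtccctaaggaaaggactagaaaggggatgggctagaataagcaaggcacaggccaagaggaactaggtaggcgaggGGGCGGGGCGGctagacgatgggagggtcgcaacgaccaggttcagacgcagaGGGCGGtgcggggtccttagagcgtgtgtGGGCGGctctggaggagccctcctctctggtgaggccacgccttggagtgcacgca
Lin28a, chr4:134018817-134019066, minus strand: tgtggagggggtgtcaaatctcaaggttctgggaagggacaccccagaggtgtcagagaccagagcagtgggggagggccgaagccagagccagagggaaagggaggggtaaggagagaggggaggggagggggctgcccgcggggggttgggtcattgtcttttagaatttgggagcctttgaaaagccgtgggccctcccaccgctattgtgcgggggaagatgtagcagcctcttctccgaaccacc

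The GC box letters occurred 1 time in the *Pou5f1* window, 4 times in the *Zfp281* window, 4 times in the *Utf1* window and 0 times in the *Lin28a* window. Of 32851 windows of this length in the table, 32.7% hold them. The *Lin28a* window holds 3 copies of GGGAGGGG, the G-rich motif searched for ZFP281, again on both strands, and the *Zfp281* window holds 1, which shares 3 bases with a GC box. That motif is in 10.9% of all windows. None of the 4 windows holds the octamer letters ATGCAAAT, which are in 1.60% of all windows, and no match says only that these letters are not in these bases. A match is a description of the sequence and not a bound site.

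A value below is a level, the log2 signal of a probe set minus the median log2 signal of its array, or a difference between the levels of a pair of arrays. The value of a gene is that of its brightest probe set by mean signal, and levels are not compared between genes. A difference of at least 1.5-fold, 0.58 on the log2 scale, is called higher or lower, after the threshold of the study. Medians were subtracted because the deposited medians were 5.07 on both arrays labelled KD and 5.28 to 5.29 on the others. Whether the 2 were normalized in a run of their own is not known, and such a run and the KD label cannot be told apart. The median absolute difference over all probe sets was 0.16 and 0.17 between an array labelled KD and its scramble counterpart, and 0.08 to 0.09 in the other pairs. In bulk RNA, fewer cells of a type and less RNA per cell cannot be told apart.

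*Tet2*, a targeted gene, did not follow the labels on every array. *Tet2* had a level of 3.25 in EpiLCs (d2) and 3.43 in EpiLCs (d2) KD, and of 3.23 in EpiLCs + PRDM14 and 2.69 in EpiLCs + PRDM14 KD, so it was not lower in the library labelled EpiLCs (d2) KD. *Tet3*, which was not targeted, was higher on both arrays labelled KD, by 0.70 and 0.69, at levels near the array median. These levels were -0.49 in EpiLCs (d2), 0.21 in EpiLCs (d2) KD, -0.45 in EpiLCs + PRDM14 and 0.24 in EpiLCs + PRDM14 KD. *Tet1* was not analysed here. The *Prdm14* probe set had a level of 1.67 in ESCs and of -0.37 to -0.10 in all 5 EpiLC cultures, including both labelled + PRDM14, and no source used here says whether it covers the transgene. Every direction below that rests on KD or + PRDM14 is therefore that of the library labelled so. Apart from the arrays, the study examined knockdown efficiency and PRDM14 expression in its lines by qRT-PCR and western blot. Cell state markers differed between the arrays. ESCs had all 8 naive markers above EpiLCs (d2) past 1.5-fold, with a median difference of 1.87, and EpiLCs + PRDM14 had all 8 too, with a median of 1.40. Of 7 primed markers, 4 were lower in ESCs and 5 in EpiLCs + PRDM14. The marker lists were chosen with earlier results of these data known. The study named several of these markers as raised or lowered by PRDM14 on these arrays. These counts are therefore no independent check of the labels. Of 7 fibroblast markers, 1 was above the array median on each array, and of 7 measured housekeeping genes 1, *Pgk1*, passed 1.5-fold in any of the 7 pairs (-0.66 in ESCs).

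All 16 probe sets of the members were above the array median on all 6 arrays, where 44.8% of all probe sets were. Between the highest and the lowest array, the brightest probe sets spanned 0.33 (*Dppa5a*) to 1.52 (*Lin28a*), with a median span of 0.88. The median span was 0.38 over all genes, and 0.36 over the 1295 genes with a mean level above 4, among which 7 of the members are. As a description, the median span of the members was above both of these, while *Dppa5a* lay below both and *Pou5f1* (0.38) close to them. The class above 4 leaves out *Lin28a* and *Zfp281* (0.88). Its 7 members spanned 0.33 to 1.01 (*Dppa2*), with *Utf1* (0.72) in the middle. Most members stayed within 1.5-fold in any single comparison. The members were chosen with earlier results of these data known, so this contrast describes them alone.

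In EpiLCs + PRDM14 against EpiLCs (d2), 0 of 9 members were higher and 1, *Zfp281*, was lower, beside 2.72% and 1.91% of all genes. Their differences ran from -0.61 to 0.55, with a median of 0.23 where that of all genes was -0.01. The 6 members above 0 were *Sall4* (0.55), *Rif1* (0.38), *Dppa2* (0.37), *Dppa4* (0.33), *Pou5f1* (0.23) and *Dppa5a* (0.22), all within 1.5-fold. The median absolute difference was 0.38 for the members and 0.10 for all genes.

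Against EpiLCs (d4), which had the same replating without doxycycline, 2 members were higher in EpiLCs + PRDM14 and 2 were lower, beside 1.86% and 2.17% of all genes. The higher ones were the pair *Dppa2* (0.77) and *Dppa4* (0.69), and the lower ones were *Lin28a* (-1.04) and *Zfp281* (-0.61). Without doxycycline, *Lin28a* (0.66) was the single member higher in EpiLCs (d4) than in EpiLCs (d2) and 0 were lower, beside 2.18% and 1.12% of all genes. ESCs against EpiLCs (d2) gave 1 member higher, *Dppa2* (0.61), and 1 lower, *Lin28a* (-0.86), beside 2.64% and 2.35% of all genes. The comparisons share arrays, so their values are not independent. The keratins *Krt8* and *Krt18*, 2 of 11 measured lineage markers, were also higher in EpiLCs (d4) than in EpiLCs (d2) (2.09 and 1.40) and lower in EpiLCs + PRDM14 than in EpiLCs (d4) (-1.39 and -1.22), and *Krt8* was 0.70 above EpiLCs (d2) in EpiLCs + PRDM14. Their part in the members' values was not tested. *Lin28a* passed the threshold in 3 of 7 comparisons, *Dppa2* and *Zfp281* in 2 each, *Dppa4* in 1 and the other members in 0.

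**Figure D1:**
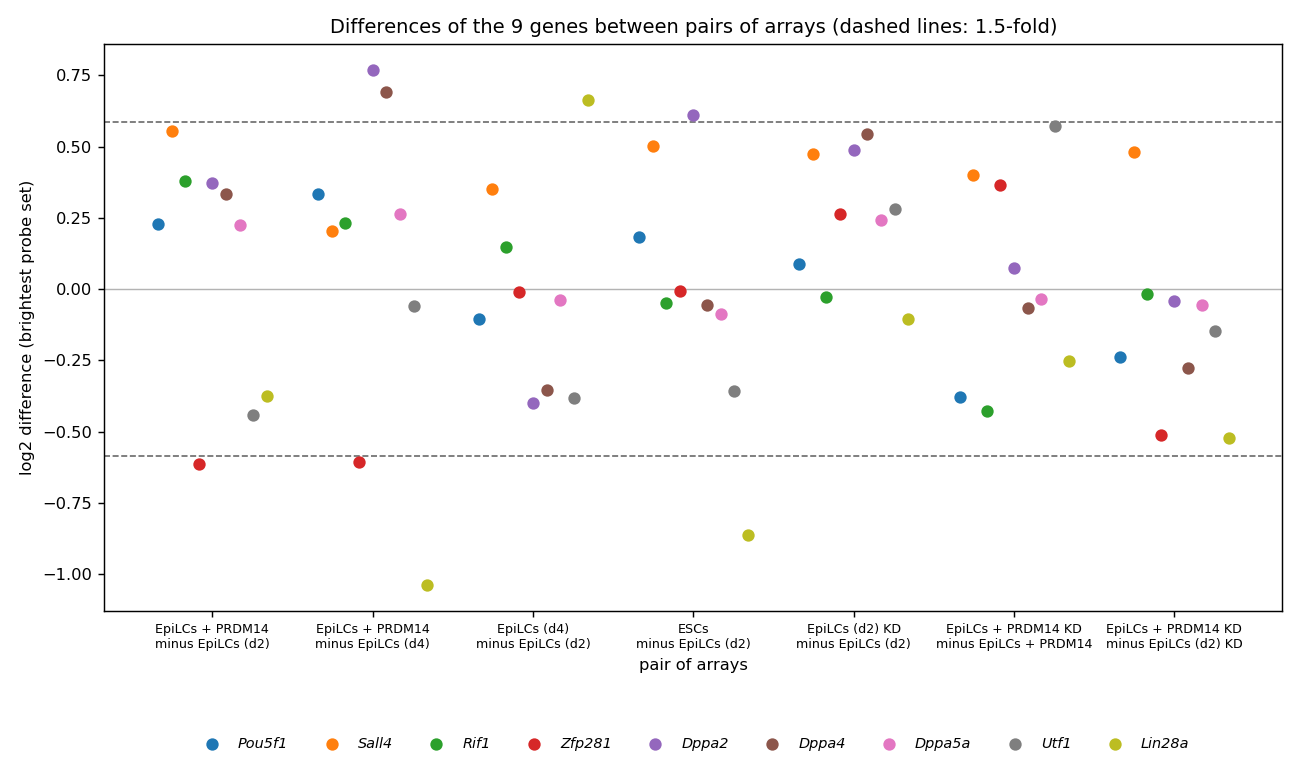
Log2 differences of the 9 genes (brightest probe set, y axis) in 7 pairs of arrays (x axis), with 1 array per condition and no error bars. Dashed lines mark 1.5-fold: 0 to 4 members lie outside them in a pair, and *Lin28a* holds the most extreme value, -1.04 in EpiLCs + PRDM14 against EpiLCs (d4).

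*Pou5f1* varied little. Its level was 5.60 in EpiLCs (d2), 5.49 in EpiLCs (d4), 5.82 in EpiLCs + PRDM14, 5.78 in ESCs, 5.68 in EpiLCs (d2) KD and 5.45 in EpiLCs + PRDM14 KD. ESCs and EpiLCs + PRDM14 lay at the top, 0.05 apart, and all 6 arrays lay within 0.38. The difference of EpiLCs + PRDM14 was 0.23 from EpiLCs (d2) and 0.33 from EpiLCs (d4). Of the other 8 measured POU genes, *Pou3f1*, a factor of primed and neural cells, was the one past the threshold: its difference in EpiLCs + PRDM14 against EpiLCs (d2) was -3.37. The other 7 stayed within 1.5-fold there, and the median of the 8 was -0.14.

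*Sall4* had its lowest level in EpiLCs (d2). The levels were 4.75 in EpiLCs (d2), 5.10 in EpiLCs (d4), 5.31 in EpiLCs + PRDM14, 5.25 in ESCs, 5.23 in EpiLCs (d2) KD and 5.71 in EpiLCs + PRDM14 KD, the highest. The differences from EpiLCs (d2) were 0.50 in ESCs, 0.35 in EpiLCs (d4) and 0.55 in EpiLCs + PRDM14, all within 1.5-fold. A dimmer probe set, with levels of 0.99 to 1.26, gave 0.25, -0.02 and 0.22 for these, so the sign in EpiLCs (d4) differed between the probe sets. None of its relatives *Sall1*, *Sall2* and *Sall3* passed the threshold in EpiLCs + PRDM14 against EpiLCs (d2). *Sall1* was lower in ESCs, with a level of 3.03 against 4.03 in EpiLCs (d2), and *Sall2*, also a primed marker, was lower in EpiLCs + PRDM14 than in EpiLCs (d4) (-0.65).

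*Rif1* was highest in EpiLCs + PRDM14 at each of its 4 probe sets. The brightest had levels of 5.55 in EpiLCs (d2), 5.70 in EpiLCs (d4), 5.93 in EpiLCs + PRDM14, 5.50 in ESCs, 5.52 in EpiLCs (d2) KD and 5.50 in EpiLCs + PRDM14 KD. Leaving EpiLCs + PRDM14 aside, the other 5 arrays ran from 5.50 to 5.70 at this probe set. At the dimmer probe sets they ran from 4.53 to 5.15, from 3.99 to 4.25 and from 1.41 to 2.21. Against EpiLCs (d2) the 4 probe sets gave differences of 0.22 to 0.38, and against EpiLCs (d4) of 0.21 to 0.42, all positive and all within 1.5-fold. Among 10 measured genes tied to RIF1 in repair and replication, such as the phosphatase subunits it carries and the kinase CDC7, 0 passed the threshold in EpiLCs + PRDM14 against either scramble EpiLC array. In ESCs, *Trp53bp1*, which recruits RIF1 to breaks, was the single one past it (-0.59).

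*Zfp281* was lower in EpiLCs + PRDM14 at both of its probe sets. The brightest probe set had levels of 3.78 in EpiLCs (d2), 3.77 in EpiLCs (d4), 3.16 in EpiLCs + PRDM14, 3.77 in ESCs, 4.04 in EpiLCs (d2) KD and 3.53 in EpiLCs + PRDM14 KD. ESCs and both scramble EpiLC arrays without PRDM14 lay within 0.01 of each other, and EpiLCs + PRDM14 lay apart below them. The difference from EpiLCs (d2) was -0.61, a 1.53-fold decrease, and the other probe set gave -0.59. From EpiLCs (d4) the probe sets gave -0.61 and -0.61, and after quantile normalization of the 6 arrays the brightest gave -0.56, within 1.5-fold. Among the scramble and ESC arrays the + PRDM14 array was the single low one, and ESCs differed from EpiLCs (d2) by -0.01.

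SALL4 and ZFP281 work with the NuRD complex, and of 14 measured genes of NuRD and other chromatin partners 1 was lower in EpiLCs + PRDM14 and 0 were higher. That gene was *Rbbp7*, a histone-binding subunit, with -0.64 against EpiLCs (d2) and -0.72 against EpiLCs (d4). The median of the 14 was -0.02. In ESCs the single gene past the threshold was *Mbd3*, the methyl-CpG-binding domain subunit of NuRD (-0.66).

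**Figure D2:**
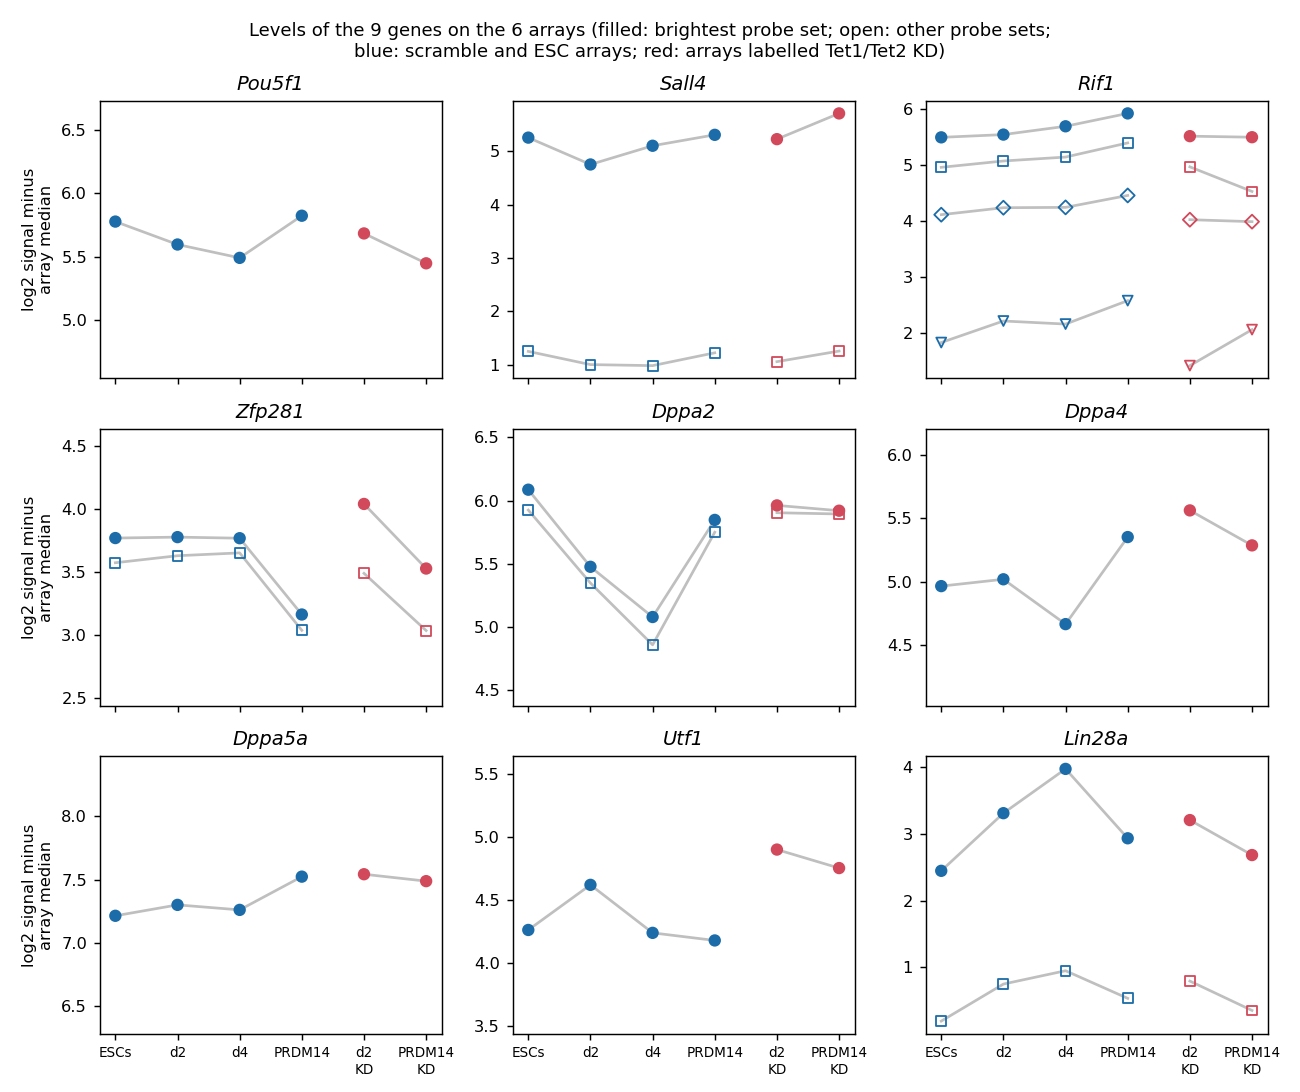
Levels (log2 signal minus the array median, y axis) of every probe set of the 9 genes on the 6 arrays (x axis), 1 array per condition, with a separate y range per gene. Filled symbols are the brightest probe sets, open symbols the others, red the arrays labelled KD, and lines join values of a probe set: *Dppa2* and *Lin28a* show opposite orders over the scramble arrays, and *Zfp281* is lowest in EpiLCs + PRDM14 at its brightest probe set.

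Of the 3 Dppa members, *Dppa2* had the widest span. Its levels were 5.47 in EpiLCs (d2), 5.08 in EpiLCs (d4), 5.85 in EpiLCs + PRDM14, 6.09 in ESCs, 5.96 in EpiLCs (d2) KD and 5.92 in EpiLCs + PRDM14 KD. ESCs, EpiLCs + PRDM14 and both arrays labelled KD lay within 0.24 of each other, above both scramble EpiLC arrays without PRDM14. The difference of EpiLCs + PRDM14 from EpiLCs (d4) was 0.77, a 1.71-fold increase, and 0.89 at the other probe set. The difference of ESCs from EpiLCs (d2) was 0.61 at the brightest and 0.58 at the other probe set, at the edge of the threshold.

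*Dppa4*, the partner of *Dppa2*, lies next to it on chromosome 16 with 0 protein-coding genes between them, by the order of genes in RefSeq. Its levels were 5.02 in EpiLCs (d2), 4.66 in EpiLCs (d4), 5.35 in EpiLCs + PRDM14, 4.96 in ESCs, 5.56 in EpiLCs (d2) KD and 5.29 in EpiLCs + PRDM14 KD. Both genes were lowest in EpiLCs (d4), and both were past the threshold between EpiLCs (d4) and EpiLCs + PRDM14, where *Dppa4* differed by 0.69, a 1.61-fold increase. They parted in ESCs: the difference from EpiLCs (d2) was -0.05 for *Dppa4* and 0.61 for *Dppa2*.

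*Dppa5a* had the narrowest span of all members. It had levels of 7.30 in EpiLCs (d2), 7.26 in EpiLCs (d4), 7.52 in EpiLCs + PRDM14, 7.21 in ESCs, 7.54 in EpiLCs (d2) KD and 7.49 in EpiLCs + PRDM14 KD. ESCs, EpiLCs (d2) and EpiLCs (d4) lay below the other 3 arrays, a split drawn after the values were seen. At most 0.33 lay between any pair, below the median span of all genes, 0.38. No comparison passed the threshold. *Ooep*, a KH-domain gene of the egg and its neighbor on chromosome 9 with 0 protein-coding genes between, was lower in EpiLCs (d4) than in EpiLCs (d2) (-0.84), and higher in EpiLCs + PRDM14 than in EpiLCs (d4) (0.79).

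Some other genes with Dppa names or related domains, though not all, had larger differences than the Dppa members. Of the 4 measured, EpiLCs + PRDM14 against EpiLCs (d2) gave 2 higher and 0 lower. They were *Dppa3* (Stella, 1.91), a maternal and germ cell factor that guards DNA methylation in the zygote, and *Khdc3* (Filia, 0.79), a KH-domain gene. Against EpiLCs (d4), *Dppa3* (1.56), *Khdc3* (1.01) and *Ooep* were higher. In ESCs against EpiLCs (d2), *Khdc3* was higher (2.41) and *Dppa3* lower (-0.78). *Khdc3* was thus above EpiLCs (d2) in both ESCs and EpiLCs + PRDM14, and *Dppa3* in the latter alone.

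Genes known to need DPPA2 or DPPA4, of the 2-cell stage and the germline, were listed as 8 symbols, of which 5 were measured. In EpiLCs + PRDM14 against EpiLCs (d2), the 2-cell-stage genes *Zfp352* (1.49) and *Tcstv3* (1.32) were higher and *Mael*, a piRNA pathway gene, was lower (-1.02). Against EpiLCs (d4), *Zfp352* (1.13) and *Tcstv3* (0.82) were higher and 0 were lower. *Mael* was also lower in EpiLCs (d4) (-1.28) and ESCs (-1.11) than in EpiLCs (d2), so EpiLCs (d2) had its highest level among the scramble and ESC arrays. *Syce1*, a gene of the synaptonemal complex, was higher in ESCs (0.71).

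*Utf1* had levels of 4.62 in EpiLCs (d2), 4.24 in EpiLCs (d4), 4.18 in EpiLCs + PRDM14, 4.26 in ESCs, 4.90 in EpiLCs (d2) KD and 4.75 in EpiLCs + PRDM14 KD. EpiLCs (d2) was the highest of the scramble and ESC arrays, and the other 3 lay within 0.08 of each other. The difference of EpiLCs + PRDM14 was -0.44 from EpiLCs (d2) and -0.06 from EpiLCs (d4). The difference of EpiLCs (d4), without doxycycline, from EpiLCs (d2) was -0.38. All 3 differences were within 1.5-fold, and what lay behind them was not tested.

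*Lin28a* had the widest span of the members. Its levels were 3.31 in EpiLCs (d2), 3.97 in EpiLCs (d4), 2.93 in EpiLCs + PRDM14, 2.44 in ESCs, 3.20 in EpiLCs (d2) KD and 2.68 in EpiLCs + PRDM14 KD. ESCs lay lowest and EpiLCs (d4) highest, and EpiLCs + PRDM14 lay between ESCs and EpiLCs (d2). The difference of EpiLCs + PRDM14 from EpiLCs (d4) was -1.04, a 2.05-fold decrease, and that of ESCs from EpiLCs (d2) was -0.86, a 1.82-fold decrease. The other probe set, with levels of 0.20 to 0.95, kept these signs but stayed within 1.5-fold, at -0.41 and -0.55. For EpiLCs (d4) against EpiLCs (d2) it gave 0.20 where the brightest gave 0.66, and the mean over both probe sets, 0.43, no longer passed.

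Of 12 measured genes of the LIN28 and let-7 pathway, 0 passed the threshold in EpiLCs + PRDM14 against either scramble EpiLC array, with medians of -0.08 and -0.12. The measured ones were *Trim71*, *Hmga2*, *Igf2bp1* and *Igf2bp3*, which are let-7 targets, and genes of microRNA processing, tailing and decay, while *Lin28b* was not analysed here. ESCs differed at *Ago2* alone, the slicing Argonaute, which was higher (0.60).

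The genes whose levels ran most like those of *Dppa2* and *Lin28a*, the members that span at least 1 log2 unit, were taken from 1215 genes of that span by Pearson correlation over the 6 arrays. For *Dppa2* they were *Usp48*, a deubiquitinase (r = 0.98), *Idh2*, the mitochondrial isocitrate dehydrogenase (r = 0.97), and *Cep55*, a cytokinesis protein (r = 0.97). *Idh2* had levels of 3.44 in ESCs, 3.19 in EpiLCs + PRDM14, 2.43 in EpiLCs (d2) and 2.08 in EpiLCs (d4). For *Lin28a* they were *Chd7*, a chromatin remodeler (r = 0.99), *Gstt2*, a glutathione transferase (r = 0.97), and *Mapkapk3*, a kinase (r = 0.97). *Chd7* had levels of 0.49 in ESCs, 0.94 in EpiLCs + PRDM14, 1.14 in EpiLCs (d2) and 1.85 in EpiLCs (d4). With 6 arrays that differ in culture state, and the highest values taken of many, these correlations are a description.

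Of 16 measured network genes close to the members, such as *Sox2* and *Nanog*, 4 were higher and 2 lower in EpiLCs + PRDM14 against EpiLCs (d2), with a median of 0.21. The higher ones were *Nanog* (2.34), *Fbxo15* (1.79), *Zfp42* (REX1, 1.31) and *Mycn* (0.78), and the lower ones *Lefty1*, a nodal inhibitor (-0.78), and *Epcam*, an adhesion protein (-0.78). The median was thus near that of the 9 members, 0.23, while the range was wider. Against EpiLCs (d4), 5 were higher, led by *Nanog* (1.82), *Zfp42* (1.13) and *Fbxo15* (0.98), and 2 lower, *Lefty1* (-1.09) and *Epcam* (-0.91). In ESCs against EpiLCs (d2), 3 were higher and 5 lower, with *Nanog* at 2.41 and *Lefty1* at -1.98.

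**Figure D3:**
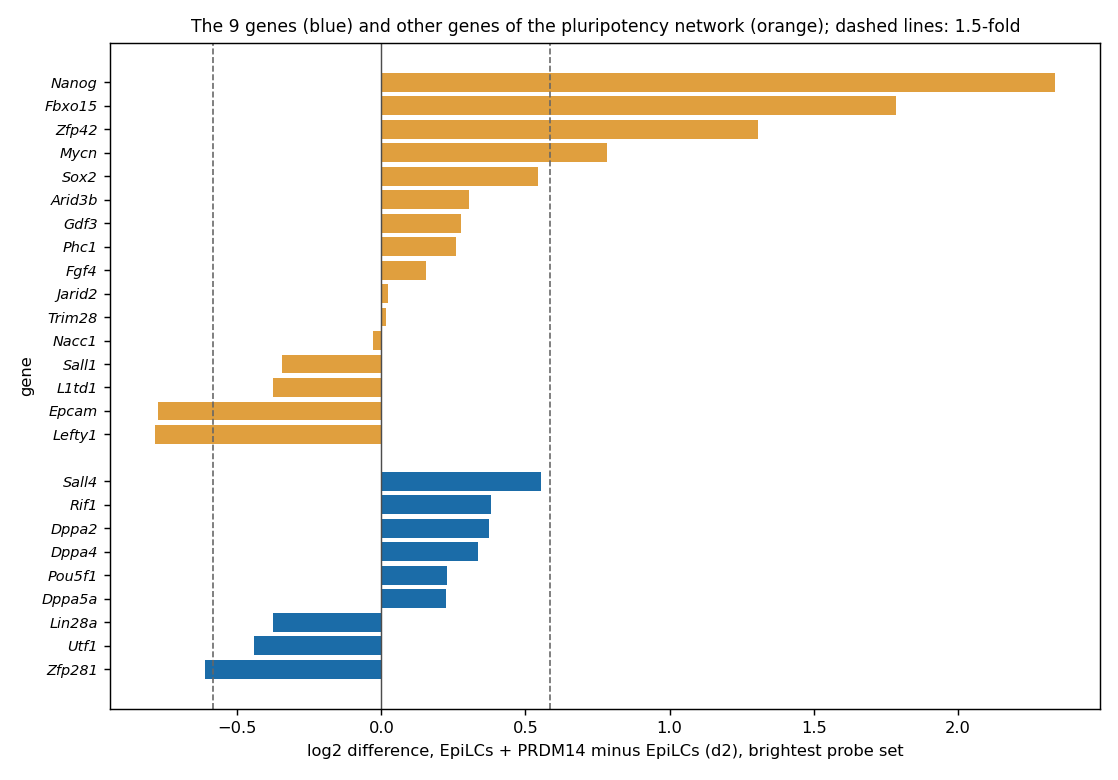
Log2 differences between EpiLCs + PRDM14 and EpiLCs (d2), both scramble (x axis, bars from 0) for the 9 members (blue) and 16 other network genes (orange), brightest probe set of each, 1 array per condition. Dashed lines mark 1.5-fold: *Nanog* reaches 2.34, while the members stay between -0.61 and 0.55 and *Zfp281* alone of them is past a line.

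Between the arrays labelled KD and their scramble counterparts, 0 of 9 members passed the threshold in either pair. Of all genes, 3.3% were higher and 2.25% lower in EpiLCs (d2) KD, and 3.58% were higher and 3.38% lower in EpiLCs + PRDM14 KD. In EpiLCs (d2) KD the members had a median difference of 0.26, against 0.03 for all genes, with 7 above 0 and 2 below. That split was not counted over all genes. The median is the value of *Zfp281*, whose other probe set gave -0.14. The largest were *Dppa4* (0.55), *Dppa2* (0.49) and *Sall4* (0.47, and 0.05 at its dimmer probe set). In that array 5 of 8 naive markers were also higher, with a median of 0.81, led by *Nr0b1* (1.39), *Tcl1* (1.22) and *Klf4* (1.06). *Nanog* (1.07) and the epithelial keratins *Krt8* (1.44) and *Krt18* (1.10) were higher there too. The part of these markers in the members' values was not tested.

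In EpiLCs + PRDM14 KD against EpiLCs + PRDM14 the median of the members was -0.04, with 4 above 0 and 5 below. *Utf1* (0.57) and *Sall4* (0.40, and 0.03 at its dimmer probe set) had the most positive values, and *Rif1* (-0.43) and *Pou5f1* (-0.38) the most negative. A further *Rif1* probe set passed the threshold (-0.87), and the remaining ones gave -0.47 and -0.52, so all 4 were negative. Without subtracting array medians, *Pou5f1* (-0.59) and *Rif1* (-0.64) passed it, on a scale where the median over all probe sets was itself shifted by -0.20. *Krt18* (2.26) and *Krt8* (1.85) were higher in the same pair, and of 11 measured lineage markers these 2 were the ones past the threshold. Their part in the members' values was not tested. At d2 another *Rif1* probe set was also past the threshold in EpiLCs (d2) KD (-0.80), where the brightest gave -0.03.

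Within the arrays labelled KD, EpiLCs + PRDM14 KD against EpiLCs (d2) KD, 0 of 9 members passed the threshold, beside 2.12% of all genes higher and 2.53% lower. *Sall4* (0.48) was the single member above 0, and the other 8 ran from -0.52 for *Lin28a* to -0.02 for *Rif1*, with a median of -0.15 over the 9. For *Rif1* the dimmest probe set was higher past the threshold in this pair (0.64), and the other 3 were below 0, down to -0.44. In the same pair 6 of 8 naive markers were higher and 5 of 7 primed markers lower. *Nanog* differed by 1.49 and *Fbxo15* by 1.65.

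The PRDM14 responses of the members, the differences from EpiLCs (d2), were set side by side in the 2 backgrounds. *Sall4* (0.55 scramble, 0.48 KD), *Zfp281* (-0.61 and -0.51) and *Lin28a* (-0.38 and -0.52) had responses of like sign and size, and *Utf1* (-0.44 and -0.15) kept its sign. *Pou5f1*, *Rif1*, *Dppa2*, *Dppa4* and *Dppa5a* were above 0 in the scramble arrays and below 0 in the arrays labelled KD. In the pair labelled KD, *Rif1* (-0.02), *Dppa2* (-0.04) and *Dppa5a* (-0.05) were within the median absolute difference over all probe sets, 0.09. Their signs there carry little weight. The response in the arrays labelled KD minus that in the scramble arrays had a median of -0.28 over the members and of -0.01 over all genes. The 16 network genes had a median of -0.39 and the 8 naive markers of -0.47, so the members did not stand alone in this. It passed the threshold at *Dppa4* (-0.61), so 0 of 9 were higher and 1 lower, beside 0.994% and 2.25% of all genes. With 4 arrays behind each value, this difference was not tested.

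**Figure D4:**
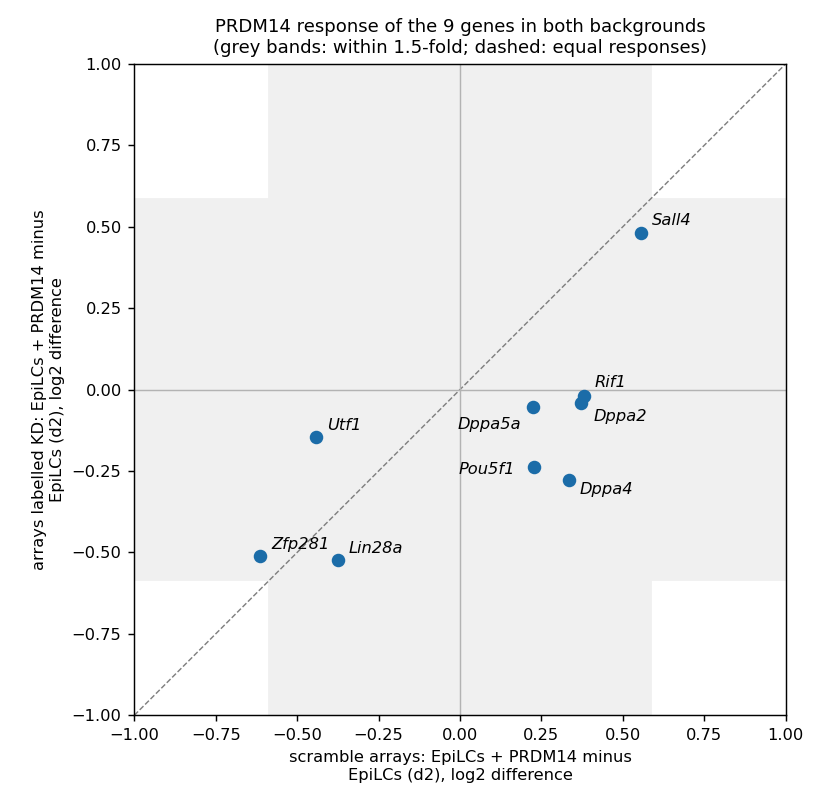
PRDM14 response of the 9 genes, as the log2 difference from EpiLCs (d2), in the scramble arrays (x axis) and in the arrays labelled KD (y axis). Points on the dashed line have equal responses: *Sall4*, *Zfp281* and *Lin28a* lie near it, and 5 genes lie right of 0 on the x axis and below 0 on the y axis. Of these, *Rif1*, *Dppa2* and *Dppa5a* lie close to 0 on the y axis.

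For *Dppa2* and *Dppa4* the arrays labelled KD and scramble stood apart at d2 rather than with PRDM14. *Dppa2* was 0.49 above its scramble counterpart in EpiLCs (d2) KD and 0.07 above it in EpiLCs + PRDM14 KD, and *Dppa4* was 0.55 above and then -0.07 from it. For *Pou5f1* and *Rif1* the d2 values were close, at 0.09 and -0.03, and the + PRDM14 values were -0.38 and -0.43. Of 5 measured genes tied to DPPA2 and DPPA4, 2 were higher and 0 lower in each of these pairs, with medians of -0.01 and 0.03. *Tcstv3* (1.41 at d2, 2.06 with PRDM14) and *Zfp352* (0.80 and 1.54) were the ones higher on both arrays labelled KD than on their scramble counterparts. In the let-7 pathway, *Hmga2*, a chromatin protein and let-7 target, was higher on both (1.18 and 1.06), while *Lin28a* differed by -0.10 and -0.25.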

How the data were processed

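Total RNA (150 ng) of each culture was labelled by the authors (GeneChip 3' IVT Express Kit) for an Affymetrix MG-430 PM array strip, run on a GeneAtlas instrument. The deposited log2 signals were made by the authors with robust multi-array average at default settings, and whether all 6 arrays were normalized together is not stated. The submitters' processing notes name the Affymetrix Expression Console, and no source used here gives its version. The number of arrays, 1 per condition, limits the precision of every value.

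Control probe sets (104) were left out and the median of each array was subtracted. Of 45037 probe sets, 28898 had 1 symbol in the platform annotation, 551 had several and 15588 had none, and several-symbol probe sets were not used for genes. A gene was given by its brightest probe set, with no filter on signal, and a difference of 1.5-fold in either direction was called. There were 7 pairs of arrays and 1 difference of responses. No test was possible, and counts and medians are set beside those of all 17097 genes. Besides the members, 14 lists with 135 symbols (111 measured) were used: network partners, NuRD partners, LIN28 and let-7, RIF1 partners, Dppa relatives, DPPA2 and DPPA4 dependent genes, SALL and POU families, naive, primed, fibroblast and lineage markers, housekeeping genes and TET genes. Members and lists were chosen with earlier results of these data known. The text names all members and, of a list, up to 4 genes past the threshold with the largest differences, besides *Prdm14* and *Tet2*. For members that span at least 1 log2 unit, the 3 genes of highest correlation are named. Promoters are from RefSeq (GRCm38.p6). Calls were checked on simulated data. Python 3.11.15, numpy 2.4.6, pandas 2.3.3 and matplotlib 3.10.9 were used.

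The alternatives were a 2-fold threshold, deposited values without centring, the mean over probe sets, the probe set with the largest difference, probe sets above the array median only, and quantile normalization of all 6 arrays.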

Additional observations from a re-analysis of the deposited data

Results flagged for a closer look

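For 5 of the 9 genes the PRDM14 response had opposite signs between the scramble pair and the pair labelled KD. How many of all genes did so was not counted, so the count of 5 has no background beside it and describes these genes only. Each condition has 1 array, so the differences were not tested. *Pou5f1* responded by 0.23 in the scramble arrays and by -0.24 in the arrays labelled KD, a difference of -0.47. For *Rif1* the responses were 0.38 and -0.02, a difference of -0.40, and its 4 probe sets gave differences from -0.76 to 0.28. The dimmest *Rif1* probe set was above 0 in both, at 0.36 and 0.64. *Dppa2* had 0.37 and -0.04, a difference of -0.41, and its other probe set also gave -0.41. *Dppa4* had 0.33 and -0.28, a difference of -0.61. *Dppa5a* had 0.22 and -0.05, a difference of -0.28. The responses of *Rif1*, *Dppa2* and *Dppa5a* in the arrays labelled KD were smaller in size than the median absolute difference over all probe sets in that pair, 0.09, so their sign there carries little weight.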

How the results depend on the processing

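No paired analysis was possible because each condition has 1 array, and for the same reason no array could be left out. Of 48 counts of members past the threshold under the 6 alternatives, 37 stayed within 1.5 times the reported count, 8 of them under the filter on dim probe sets, and 11 moved. A reported count of 0 could not change under the stricter 2-fold threshold, and every reported count above 0 moved there. At a 2-fold threshold the count went to 0 in EpiLCs + PRDM14 against EpiLCs (d2), in EpiLCs (d4) and ESCs against EpiLCs (d2) and in the difference of responses, and to 1 (*Lin28a*) in EpiLCs + PRDM14 against EpiLCs (d4). With the mean over probe sets it went to 0 in EpiLCs (d4) against EpiLCs (d2). The probe set with the largest difference gave 1 in EpiLCs (d2) KD against its scramble array, 1 in EpiLCs + PRDM14 KD against its scramble array and 1 within the arrays labelled KD, each time *Rif1*, and 2 in the difference of responses, *Dppa4* and *Rif1*. Without centring, which shifts the median over all probe sets by -0.19 and -0.20 between arrays labelled KD and scramble arrays, 2 members passed in EpiLCs + PRDM14 KD against EpiLCs + PRDM14. No value of a member that passed changed its direction, and the filter on dim probe sets could change no call, since all 16 probe sets of the members are above the array median on every array. Signal over the array median limits the second probe sets of *Sall4* and *Lin28a*, whose levels reach 1.26 and 0.95 at most.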
